A study of Mus musculus with 9 samples.

Results

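The 10 genes described here encode molecules on the surface of endothelial cells to which leukocytes attach, or sialomucins of the same surface: *Icam1*, *Icam2*, *Vcam1*, *Sele*, *Selp*, *Emcn*, *Cd34*, *Podxl*, *Mcam* and *Cd93*. They were chosen by name, with earlier results of these data known. Each matched 1 row among 37104 rows of the deposited expression tables. RNA-seq gave their mRNA levels in primary murine lung endothelial cells (MLEC) from adult C57BL/6J mice 10 to 12 weeks old, in 3 groups of 3 libraries. Cells called E3KO were Cdh5-Cre+ and homozygous for both floxed alleles (Jnk1LoxP/LoxP and Jnk2LoxP/LoxP) on the Jnk3-/- background. The Cre-positive control, ECtrl, was Cdh5-Cre+ and carried Jnk1+/+, Jnk2+/+ and Jnk3-/-. The Cre-negative control, EfCtrl, was Cdh5-Cre- and carried the LoxP alleles of *Jnk1* and *Jnk2* with Jnk3-/-. Thus every group, controls included, lacked *Jnk3*, and the *Cdh5* promoter, which is active in endothelial cells, drove Cre. Each library was an independent isolation from the pooled lungs of several mice, in which cells were selected with beads carrying an antibody to ICAM2 and grown in culture, so the levels are those of cultured cells, for which the labels name no cytokine treatment. The comparisons asked how loss of JNK1 and JNK2 in endothelial cells of this JNK3-deficient background altered mRNA levels.

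Leukocytes leave the blood in steps. Selectins (E-selectin, encoded by *Sele*, and P-selectin, encoded by *Selp*) capture rolling cells by binding sialylated and fucosylated sugars, and ICAM1, ICAM2 and VCAM1, members of the immunoglobulin superfamily, then hold the cells through leukocyte integrins. Inflammatory cytokines induce *Icam1*, *Vcam1* and *Sele* in endothelial cells through NF-κB and AP-1, and the JNK kinases phosphorylate cJun, a subunit of AP-1. The sialomucins endomucin (*Emcn*), CD34 and podocalyxin (*Podxl*) carry dense sialylated sugar chains that are mostly anti-adhesive, although suitably sulfated forms in lymph node venules bind L-selectin. MCAM (CD146) lies at endothelial junctions, and CD93 is a lectin-like receptor of the group XIV family that binds the matrix protein multimerin 2.

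The sequence just before the annotated start of a gene is shown for the 3 members in which adhesion to leukocytes is the known role, a higher level was measured in E3KO MLEC, and a RefSeq window was given. RefSeq windows (GRCm38.p6, the patched release of the mm10 build) were matched by symbol for 6 of 10 members: *Sele*, *Selp*, *Cd34*, *Emcn*, *Icam1* and *Mcam*. These lie on the plus strand. The members without a window, *Icam2*, *Vcam1*, *Podxl* and *Cd93*, all lie on the minus strand, so none of them was searched for motifs. Each sequence below is the 250 bases upstream of the start on the plus strand, read 5′ to 3′, with capitals on matches to 3 short motifs described after them.
Icam1, chr9:21015690-21015939: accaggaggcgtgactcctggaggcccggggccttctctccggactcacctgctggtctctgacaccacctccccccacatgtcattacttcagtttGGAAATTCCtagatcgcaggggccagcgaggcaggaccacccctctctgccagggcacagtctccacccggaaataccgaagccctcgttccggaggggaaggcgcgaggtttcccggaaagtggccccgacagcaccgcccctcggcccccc
Selp, chr1:164115014-164115263: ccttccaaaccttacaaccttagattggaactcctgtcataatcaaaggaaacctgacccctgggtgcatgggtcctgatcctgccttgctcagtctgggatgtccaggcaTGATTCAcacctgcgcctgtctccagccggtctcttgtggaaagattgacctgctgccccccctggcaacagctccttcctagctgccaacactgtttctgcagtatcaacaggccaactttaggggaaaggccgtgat
Sele, chr1:164047984-164048233: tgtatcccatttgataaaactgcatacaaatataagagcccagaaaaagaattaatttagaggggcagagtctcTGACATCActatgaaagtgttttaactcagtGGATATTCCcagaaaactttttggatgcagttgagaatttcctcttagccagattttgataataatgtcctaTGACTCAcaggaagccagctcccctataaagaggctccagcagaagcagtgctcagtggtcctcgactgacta

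The motifs were searched on both strands and chosen with the windows at hand, so the matches are a description. The AP-1 element (TGANTCA) was found in the *Selp* window, 139 to 133 bases before the start, and in the *Sele* window, 73 to 67 bases before it. A cyclic AMP response element-like octamer (TGACNTCA), a form also bound by cJun-ATF2 dimers, was found in the *Sele* window 176 to 169 bases before the start and in the *Mcam* window 29 to 22 bases before it. A short κB-like motif (GGANNTTCC) lay 153 to 145 bases before the *Icam1* start and 145 to 137 bases before the *Sele* start. No match overlapped another. A longer NF-κB consensus, searched by the name κB consensus, had no match in the 6 windows, and the *Cd34* and *Emcn* windows held none of the 4 motifs. Of 32851 windows of the same length, 6.75% held the AP-1 element, 7.49% the octamer, 3.59% the short κB-like motif and 3.90% the κB consensus. GC content was 65.2% in the *Icam1* window, 53.6% in the *Selp* window and 40.4% in the *Sele* window, against a median of 52.4% over all windows.

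Levels below are FPKM (fragments of a transcript scaled by its length and by the mapped total of the library), which can be set side by side between genes. The targeted genes were examined first. *Mapk9* (JNK2) was between 42.7 and 50.9 FPKM in the 6 control libraries and at 27.6, 35.1 and 20.7 FPKM in E3KO replicates 1 to 3. *Mapk8* (JNK1) was at 8.77 and 4.65 FPKM in E3KO replicates 2 and 3, below the control range of 14.0 to 17.9, but at 20.7 FPKM in the library labelled E3KO replicate 1, above all controls. These values cover the whole gene, including exons that Cre does not remove. The same library stood apart in its total of 9841812 FPKM, of which 96.4% fell to 10 gene symbols, whereas the other 8 libraries summed to between 656089 and 908401. When symbols with a mean of 5000 FPKM or more over the 9 libraries were set aside, the 9 totals lay between 388537 and 433172. It was also the library with the most lung epithelial marker RNA, with *Scgb1a1*, a club cell secretory gene, at 46.2 FPKM. Results against both controls are therefore also given without it for the members and for the lists with called genes.

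**Figure D1:**
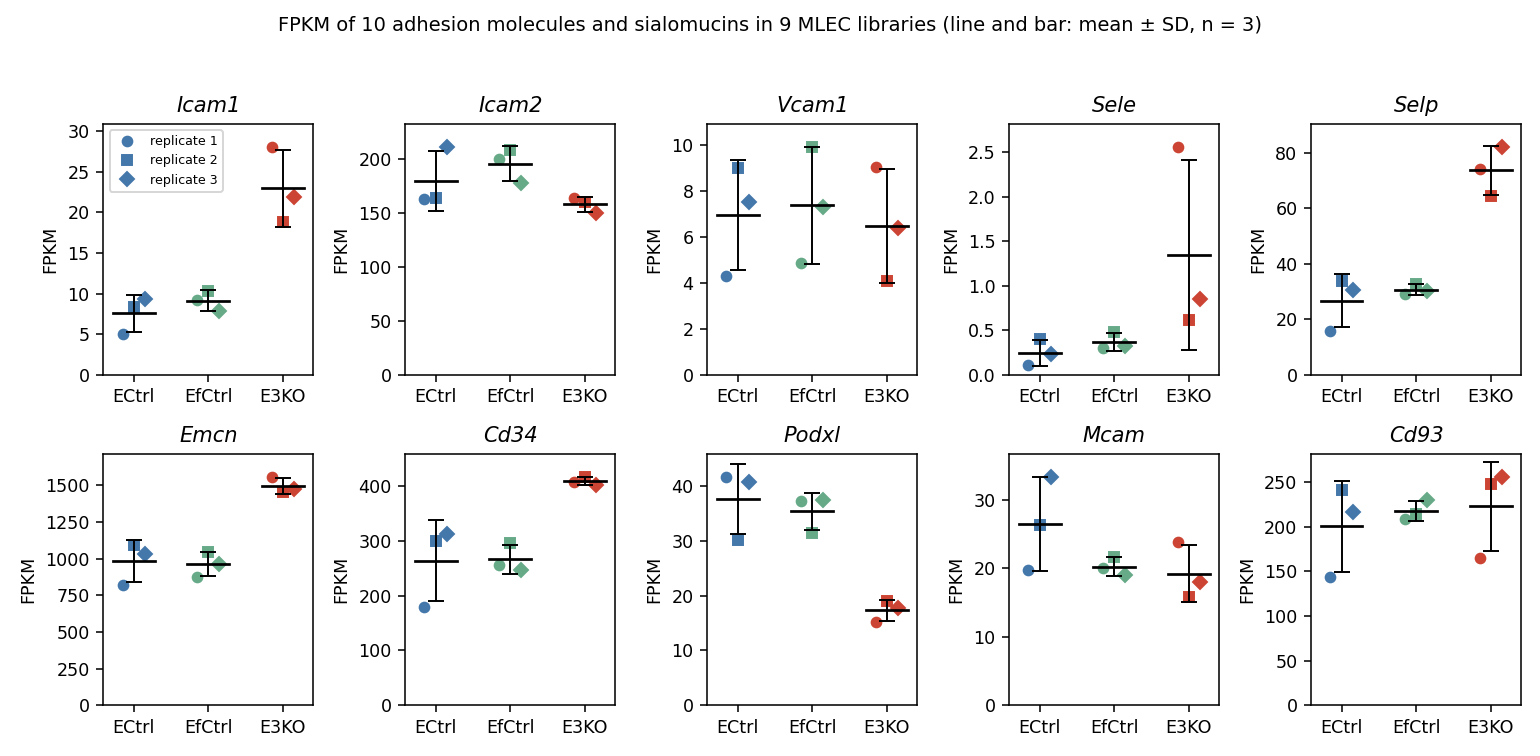
FPKM of each of the 10 genes (vertical axes, each starting at 0) in ECtrl, EfCtrl and E3KO MLEC, with a marker for each library and a line and bar for the mean ± SD of 3. In Icam1, Sele, Selp, Emcn and Cd34 the 3 E3KO libraries lie above all 6 controls, in Podxl they lie below all 6, and in Icam2, Vcam1, Mcam and Cd93 the groups overlap.

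Against both controls, that is the average of the ECtrl and EfCtrl means, *Icam1*, *Selp* and *Emcn* rose and *Podxl* fell in E3KO MLEC. Of these, only *Podxl* also passed against each control alone. *Vcam1*, *Icam2*, *Mcam*, *Cd34* and *Cd93* did not pass the test. *Sele* was too low to enter it. The test was limma on log2(FPKM + 1) over 10605 genes that reached a mean of 2 FPKM in at least 1 group, with adjustment by the Benjamini-Hochberg method and a threshold of 0.05. A log2 difference on this scale understates the change of genes at low FPKM. Of the 9 members tested, 3 rose, against 1.54% of all genes tested, and 1 fell, against 3.26% of all genes, so that 4 of 9 were called where the share over all genes was 4.80%. All 3 E3KO libraries were above all 6 controls in 4 of 9 members tested, and in *Sele*, where 5.18% of all genes tested did so. They were below all controls in 1 of 9, where 11.5% of all genes did so. The median log2 difference of the 9 members was 0.08, beside -0.08 over all genes tested. The members were chosen with earlier results of these data known, so these shares and medians are a description. Without the library labelled E3KO replicate 1, the members called were *Icam1*, *Selp* and *Podxl*, with 360 calls over all 10605 genes. Without it the log2 difference was -0.37 for *Vcam1*, -0.42 for *Mcam*, 0.28 for *Cd93* and 0.65 for *Cd34*. The count also turned on other libraries: without EfCtrl replicate 1, or without EfCtrl replicate 3, 2 members (*Icam1* and *Podxl*) were called, with 145 and 104 calls over all genes, and without E3KO replicate 3 no member was called, when only 9 of 10605 genes were.

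Of the integrin ligands, *Icam1* (row at chromosome 9, 21015960 to 21039036, mm10) had, with *Selp*, the largest log2 difference of the members tested. ICAM1 binds the β2 integrins LFA-1 and Mac-1 and is the endothelial ligand on which leukocytes arrest and crawl. *Icam1* was at 5.02, 8.38 and 9.29 FPKM in ECtrl, at 9.24, 10.4 and 7.82 FPKM in EfCtrl and at 28.1, 18.8 and 21.9 FPKM in E3KO. The lowest E3KO library was thus well above the highest control library. Means were 7.56 ± 2.25 FPKM in ECtrl, 9.14 ± 1.28 FPKM in EfCtrl and 23.0 ± 4.72 FPKM in E3KO (SD, n = 3 each), and the E3KO mean was 2.75 times that of the 6 controls. The log2 difference from both controls was 1.37 (SE 0.20, limma adjusted p = 0.0140). Against ECtrl alone it was 1.50 (limma adjusted p = 0.0260), and against EfCtrl alone it was 1.23 and did not pass (limma adjusted p = 0.0525). Without the library labelled E3KO replicate 1, which had the highest *Icam1* level, it was 1.22 (limma adjusted p = 0.0345). The row spans the neighbouring *Icam4* and *Icam5* genes and 2 antisense transcripts, but *Icam4* was listed at 0 in all libraries and *Icam5* at no more than 0.0168 FPKM. The antisense transcripts cannot be told apart from *Icam1* here because strand was not stated.

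*Vcam1* (chromosome 3, 116110020 to 116129688), whose product binds the integrin VLA-4 on monocytes and lymphocytes, was near *Icam1* in the controls and did not pass the test. It was at 4.30, 9.01 and 7.54 FPKM in ECtrl, at 4.86, 9.93 and 7.31 FPKM in EfCtrl and at 9.03, 4.08 and 6.36 FPKM in E3KO. The 3 groups overlapped throughout, and the E3KO libraries alone ran from the lowest value of the series to near the highest. The log2 difference from both controls was -0.13, with a 95% interval from -0.80 to 0.54 (limma adjusted p = 0.810), an interval that leaves room for a change in either direction. The row overlaps an antisense gene, *Gm43109*. Within each library, the ratio of *Icam1* to *Vcam1* was between 0.929 and 1.90 in the controls and at 3.11, 4.62 and 3.45 in E3KO, so these did not overlap. This ratio, like the others below, was chosen after the values were seen, and is a description.

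*Icam2* (chromosome 11, 106377656 to 106388075) encodes a constitutive LFA-1 ligand and was the antigen used to select the cells in all 3 groups. The part of this selection in its level was not tested. *Icam2* was at 162, 164 and 211 FPKM in ECtrl, at 200.0, 208 and 177 FPKM in EfCtrl and at 163, 160.2 and 150.0 FPKM in E3KO. E3KO replicates 2 and 3 were below all controls, and replicate 1 lay just inside their range. The log2 difference was -0.24, with a 95% interval from -0.50 to 0.03 (limma adjusted p = 0.250), and the exact two-sided permutation test over the 9 libraries gave p = 0.0476. Against ECtrl it was -0.17 (limma adjusted p = 0.490), and against EfCtrl, whose libraries were all above those of E3KO, it was -0.30 (limma adjusted p = 0.282). The exact permutation p was 0.143 without the library labelled E3KO replicate 1.

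The selectin *Selp* (chromosome 1, row from 164115264 to 164220277) rose to a similar degree as *Icam1*. P-selectin is stored in Weibel-Palade bodies of endothelial cells and in platelet granules and is moved to the surface on activation. *Selp* was at 15.9, 33.7 and 30.6 FPKM in ECtrl, at 29.2, 32.8 and 30.3 FPKM in EfCtrl and at 74.2, 64.6 and 82.4 FPKM in E3KO. Apart from the low ECtrl replicate 1 the controls were within a narrow band, and every E3KO library was well above it. Means were 26.7 ± 9.50 FPKM in ECtrl, 30.8 ± 1.87 FPKM in EfCtrl and 73.7 ± 8.87 FPKM in E3KO (SD, n = 3 each), and the E3KO mean was 2.56 times that of the 6 controls. The log2 difference from both controls was 1.36 (SE 0.22, limma adjusted p = 0.0182). It was 1.49 against ECtrl (limma adjusted p = 0.0309) and 1.23 against EfCtrl, which did not pass (limma adjusted p = 0.0678). It was 1.35 (limma adjusted p = 0.0440) without the library labelled E3KO replicate 1. Without EfCtrl replicate 1, EfCtrl replicate 3 or E3KO replicate 3 the adjusted p was 0.0544, 0.0585 and 0.0885, in that order. The *Selp* row also spans the noncoding genes *Gm16587* and *Gm16548* on the other strand and the coagulation factor gene *F5*, which has its own value of 0.107 to 0.433 FPKM in the controls and of 0.559, 1.14 and 2.20 FPKM in E3KO. Platelets are the other cells that carry P-selectin. The 6 platelet and megakaryocyte markers summed to between 2.02 and 3.69 FPKM in the controls and between 2.08 and 4.84 FPKM in E3KO, 4 of the 6 stayed under 1 FPKM in every library, and the platelet chemokine *Pf4* reached at most 4.08 FPKM. The part of platelet RNA in the *Selp* difference was not tested.

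*Sele* (chromosome 1, 164048234 to 164057677), the cytokine-induced selectin of endothelial cells and a neighbour of *Selp* on the chromosome, was nearly silent in the controls. It was at 0.112, 0.398 and 0.229 FPKM in ECtrl, at 0.296, 0.480 and 0.319 FPKM in EfCtrl and at 2.56, 0.611 and 0.854 FPKM in E3KO. All E3KO libraries were above all controls, but the library labelled E3KO replicate 1 was far above the other two, which were close to the controls. No group reached a mean of 2 FPKM, so *Sele* was not among the genes tested. The exact two-sided permutation test gave p = 0.0119, the smallest that 3 libraries against 6 allow, and 0.0357 without the library labelled E3KO replicate 1, again the smallest possible. With no filter on low values the log2 difference was 0.76 and did not pass (limma adjusted p = 0.179). The ratio of *Selp* to *Sele* within a library was 68.4 to 142 in the controls and 28.9, 106 and 96.5 in E3KO, so that the groups overlapped.

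Among the sialomucins, *Emcn* rose and *Podxl* fell against the average of the control group means, and *Cd34* did not pass the test. Against each control alone, *Podxl* passed and *Emcn* did not. *Emcn* (chromosome 3, 137341067 to 137432185) encodes endomucin, a mucin of capillary and venous endothelium that limits the access of leukocytes to adhesion molecules. It was at 822, 1095 and 1033 FPKM in ECtrl, at 877, 1044 and 966 FPKM in EfCtrl and at 1557, 1452 and 1477 FPKM in E3KO. The lowest E3KO library exceeded the highest control library by a wide margin, and the E3KO mean was 1.54 times that of the controls. The log2 difference was 0.63 from both controls (SE 0.12, limma adjusted p = 0.0260), 0.61 from ECtrl (limma adjusted p = 0.0572) and 0.64 from EfCtrl (limma adjusted p = 0.0692). Its size barely changed with any 1 library left out (0.56 to 0.67), but the call was lost without the library labelled E3KO replicate 1 (limma adjusted p = 0.0558). It was also lost without E3KO replicate 2 (limma adjusted p = 0.0624), E3KO replicate 3 (0.0955), EfCtrl replicate 1 (0.0708) or EfCtrl replicate 3 (0.0724).

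*Cd34* (row at chromosome 1, 194938821 to 195037908), a sialomucin of capillary endothelium and of haematopoietic progenitors, was at 179, 298 and 313 FPKM in ECtrl, at 255, 296 and 247 FPKM in EfCtrl and at 407, 416 and 402 FPKM in E3KO. The E3KO libraries were tightly grouped and above all controls, whereas ECtrl replicate 1 was well below the other controls. The E3KO mean was 1.54 times that of the controls, as for *Emcn*, but with the wider spread of the controls the log2 difference of 0.65 (SE 0.18) did not pass (limma adjusted p = 0.0787). It was 0.67 against ECtrl (limma adjusted p = 0.127) and 0.62 against EfCtrl (limma adjusted p = 0.183). Without ECtrl replicate 1 it was smaller, 0.52, and passed (limma adjusted p = 0.0370). The row covers 9 other annotated genes, mainly long noncoding RNAs and the end of *Cd46*, whose own row was at no more than 0.743 FPKM. The noncoding gene *A330023F24Rik*, on the same strand within the row, had no value of its own among the rows used. It cannot be told apart from *Cd34* here.

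*Podxl* (chromosome 6, 31519488 to 31563981) encodes podocalyxin, the sialomucin that lines the apical face of podocytes and of vessels. It was at 41.7, 30.2 and 40.8 FPKM in ECtrl, at 37.3, 31.5 and 37.5 FPKM in EfCtrl and at 15.1, 19.0 and 17.8 FPKM in E3KO. All E3KO libraries were below all controls, and the groups were separated by more than the whole spread within E3KO. Means were 37.6 ± 6.39 FPKM in ECtrl, 35.4 ± 3.39 FPKM in EfCtrl and 17.3 ± 1.97 FPKM in E3KO (SD, n = 3 each), so the E3KO mean was 0.474 times that of the controls. The log2 difference was -1.03 from both controls (SE 0.14, limma adjusted p = 0.0120), -1.07 from ECtrl (limma adjusted p = 0.0241) and -0.99 from EfCtrl (limma adjusted p = 0.0378). *Podxl* was the only member called in all 3 of these comparisons. Without the library labelled E3KO replicate 1 it was -0.94 from both controls (limma adjusted p = 0.0301), and without E3KO replicate 3 it was -1.05 and did not pass (limma adjusted p = 0.0695). The ratio of *Podxl* to *Cd34* within a library was between 0.101 and 0.233 in the controls and at 0.0372, 0.0456 and 0.0444 in E3KO. The ratio of *Podxl* to *Emcn* was likewise lower in every E3KO library, at no more than 0.0131 where the lowest control was at 0.0276.

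*Mcam* and *Cd93* did not pass the test in any comparison. *Mcam* (row at chromosome 9, 44123768 to 44142727) was at 19.7, 26.4 and 33.4 FPKM in ECtrl, at 20.1, 21.7 and 19.0 FPKM in EfCtrl and at 23.9, 15.8 and 18.0 FPKM in E3KO. ECtrl was the group with the widest range, and the EfCtrl libraries lay inside the E3KO range. The log2 difference from both controls was -0.26, with a 95% interval from -0.67 to 0.15 (limma adjusted p = 0.404). The row takes in most of an antisense gene, *Gm10687*. *Cd93* (chromosome 2, 148436640 to 148443563) was at 144, 241 and 217 FPKM in ECtrl, at 209, 215 and 230.3 FPKM in EfCtrl and at 165, 247 and 256 FPKM in E3KO. E3KO replicates 2 and 3 were just above the controls and replicate 1 was near the bottom of their range. The log2 difference was 0.08, with a 95% interval from -0.37 to 0.54 (limma adjusted p = 0.824).

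**Figure D2:**
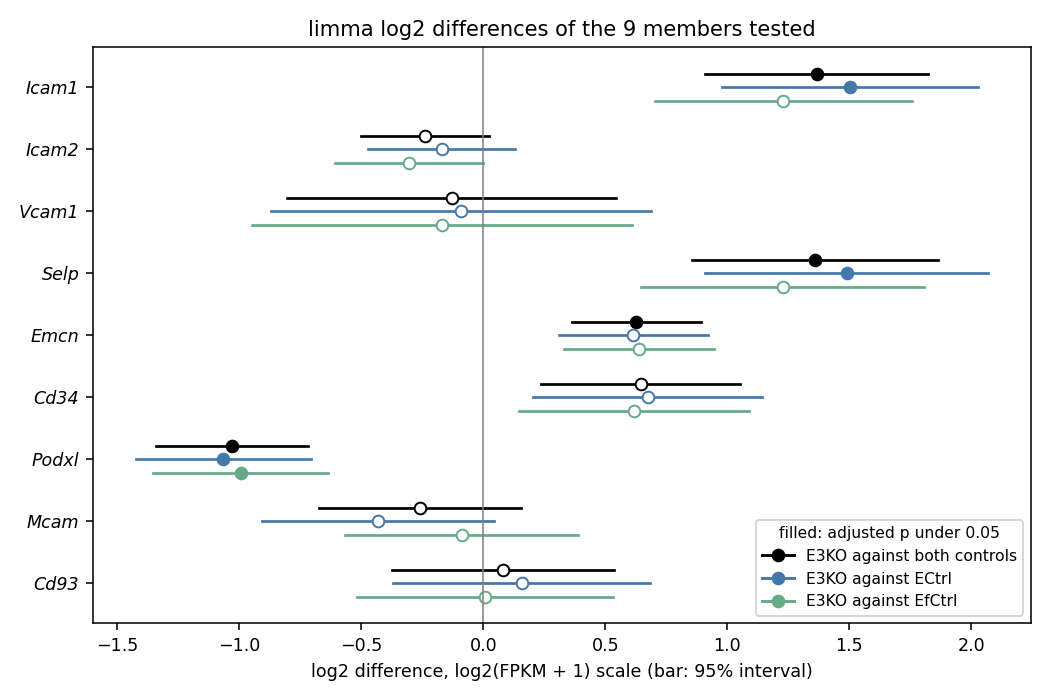
limma log2 differences on the log2(FPKM + 1) scale (horizontal axis) of the 9 members tested, for E3KO against both controls (black), ECtrl (blue) and EfCtrl (green), with bars for 95% intervals and filled points for an adjusted p under 0.05. Icam1, Selp, Emcn and Cd34 lie to the right of 0 and Podxl to the left in all 3 comparisons, and the intervals of Vcam1, Mcam and Cd93 include 0 in each.

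Against ECtrl alone, 3 of 9 members were called (*Icam1*, *Selp* and *Podxl*), where 2.25% of all genes tested were. Against EfCtrl alone only *Podxl* was called, where 0.952% of all genes were. The 2 comparisons share the E3KO libraries. No member was called between EfCtrl and ECtrl, where 0.00% of genes tested were called by limma and 195 of 10605 had an unadjusted p under 0.05. The member differences between these controls ran from -0.34 for *Mcam* to 0.27 for *Icam1* on the log2 scale. No member's EfCtrl libraries were separated from its ECtrl libraries, where 7.89% of all genes tested were separated in either direction. Without 1 library, the number of members called against ECtrl ranged from 0 to 3 and against EfCtrl from 0 to 5. It was 0 against ECtrl without any 1 of the 3 EfCtrl libraries or without E3KO replicate 3, where calls over all genes numbered 0 to 49. It was 1 without ECtrl replicate 1 or replicate 3, with 15 and 118 calls over all genes. Against EfCtrl it was 5 without ECtrl replicate 1, 1 without ECtrl replicate 2 and 0 without any 1 of the other 7 libraries. In the same order, calls over all genes numbered 223, 36 and 1 to 63.

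By the exact two-sided permutation test of single values, *Icam1*, *Selp*, *Sele*, *Emcn*, *Cd34* and *Podxl* reached the smallest possible p of 0.0119. The corresponding exact permutation p was 0.655 for *Vcam1*, 0.262 for *Mcam* and 0.762 for *Cd93*. A member reaches this p by a full separation of the groups, which 16.6% of all genes tested showed in either direction. These 10 p-values are not adjusted.

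In the 6 controls the mean was highest for *Emcn* (973 FPKM), above 99.7% of the genes tested, followed by *Cd34* (265 FPKM), *Cd93* (209 FPKM) and *Icam2* (187 FPKM). *Podxl* (36.5 FPKM), *Selp* (28.8 FPKM) and *Mcam* (23.4 FPKM) formed a middle group, followed by *Icam1* (8.35 FPKM), *Vcam1* (7.16 FPKM) and *Sele* (0.306 FPKM). Ranges of neighbours overlapped from *Cd34* to *Cd93*, *Cd93* to *Icam2*, *Podxl* to *Selp*, *Selp* to *Mcam* and *Icam1* to *Vcam1*. The overlap of ranges does not use that both genes were measured in the same library. Within single control libraries, *Cd34* was above *Cd93* in 6 of 6, *Cd93* above *Icam2* in 5 of 6 and *Selp* above *Mcam* in 4 of 6. In E3KO, *Selp* was above *Podxl* and *Icam1* was above *Vcam1* in 3 of 3 libraries. In the controls *Podxl* exceeded *Selp* in 4 of 6 libraries and *Icam1* exceeded *Vcam1* in 5 of 6. By mean, *Podxl* was the fifth of the 10 genes in the controls and the eighth in E3KO, where *Icam1* and *Mcam* were also above it.

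Other genes of the same pathways were examined in lists, which were also chosen with earlier results of these data known. The counts below stand beside 1.54% of all genes tested that rose and 3.26% that fell. Of 19 endothelial partners in adhesion and transmigration, such as the junctional molecules *Pecam1* and *Jam2*, 14 were tested and 0 rose or fell. The largest differences by size were in *Jam2*, a junctional adhesion molecule that binds VLA-4 (log2 difference 0.94, limma adjusted p = 0.163), and *Alcam*, which binds CD6 on lymphocytes (0.43, limma adjusted p = 0.161). *Jam2* reached a mean of 2 FPKM in E3KO alone, and its E3KO libraries, at 3.52, 0.945 and 4.26 FPKM, overlapped with the controls, at 0.189 to 1.43 FPKM. *Ackr1*, the venular chemokine-binding receptor also called *Darc*, was below the level for testing and is named here after its values were seen. It was between 0 and 0.412 FPKM in the controls and at 3.75, 1.32 and 0.796 FPKM in E3KO, with the highest value in the library that was also highest for *Sele*.

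Of 20 genes induced in endothelial cells by cytokines, 12 were tested, 3 rose and 0 fell, with a median log2 difference of 0.09. Over all genes tested, 1.54% rose and 3.26% fell. All 3 E3KO libraries were above all controls in 5 of the 12, where 5.18% of all genes tested did so. They were below all controls in 1 of the 12, where 11.5% of all genes did so. *Ptgs2*, which encodes cyclooxygenase 2, rose from between 0.583 and 3.44 FPKM in the controls to 11.4, 9.16 and 15.9 FPKM in E3KO (log2 difference 1.97, limma adjusted p = 0.0204). The monocyte chemokine *Ccl2* lay between 144 and 287 FPKM in the controls and reached 537, 482 and 514 FPKM in E3KO (1.27, limma adjusted p = 0.0231). *Ccl7*, a related monocyte chemokine, lay between 5.28 and 15.5 FPKM and reached 28.3, 35.6 and 43.5 FPKM (1.79, limma adjusted p = 0.0322). The growth factor genes *Csf1* (0.82, limma adjusted p = 0.0563) and *Csf3* (1.26, limma adjusted p = 0.0592) were above all controls in each E3KO library and did not pass, and 4 of the 12 tested genes had a negative difference. *Csf3* reached a mean of 2 FPKM in E3KO alone, so it could be tested only because it was high there. These 2 were named after their values were seen. Only *Ptgs2* of this list was called without the library labelled E3KO replicate 1, the same was so without E3KO replicate 2, and none was called without E3KO replicate 3.

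The sugars that selectins bind are built by glycosyltransferases, sulfotransferases and other proteins of sugar synthesis. Of 18 genes for such proteins 16 were tested, and 1 rose: *B3gnt3*, which extends core O-glycans toward L-selectin ligands. *B3gnt3* lay between 3.50 and 6.64 FPKM in the controls and reached 8.93, 9.41 and 9.73 FPKM in E3KO (log2 difference 0.85, limma adjusted p = 0.0255). Without the library labelled E3KO replicate 1 the calls in this list were *B3gnt3* and the sulfotransferase *Chst2*, and without E3KO replicate 2 or 3 there were 0. The list's median was 0.12. Of 10 sialomucin relatives and cytoplasmic partners 8 were tested and 0 were called. The largest differences were in *Slc9a3r2* (-0.41, limma adjusted p = 0.140) and *Ezr* (-0.31, limma adjusted p = 0.276), whose products NHERF2 and ezrin link podocalyxin to actin. In *Slc9a3r2* all 3 E3KO libraries, at 26.0, 35.6 and 34.8 FPKM, were below all controls, of which the lowest was at 35.7 FPKM.

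In the group XIV family, to which CD93 belongs, *Clec14a* rose from between 14.6 and 18.3 FPKM in the controls to 27.5, 25.5 and 27.9 FPKM in E3KO (log2 difference 0.69, limma adjusted p = 0.0140). It was also called against ECtrl (0.66, limma adjusted p = 0.0348) and EfCtrl (0.71, limma adjusted p = 0.0399), and with either E3KO replicate 1 or E3KO replicate 2 left out, but not without E3KO replicate 3. It was the only call among the 5 tested of 6 genes of this family and CD93 ligands. Multimerin 2 (*Mmrn2*), a ligand of both CD93 and CLEC14A, had a log2 difference of 0.58 (limma adjusted p = 0.106) and overlapped between the groups. Its relative *Mmrn1* had one of -0.58 (limma adjusted p = 0.1002), with E3KO at 264, 247 and 225 FPKM, below all controls, at 280.0 to 479 FPKM. Thrombomodulin (*Thbd*) had one of -0.33 (limma adjusted p = 0.134). These 3 were named after their values were seen.

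**Figure D3:**
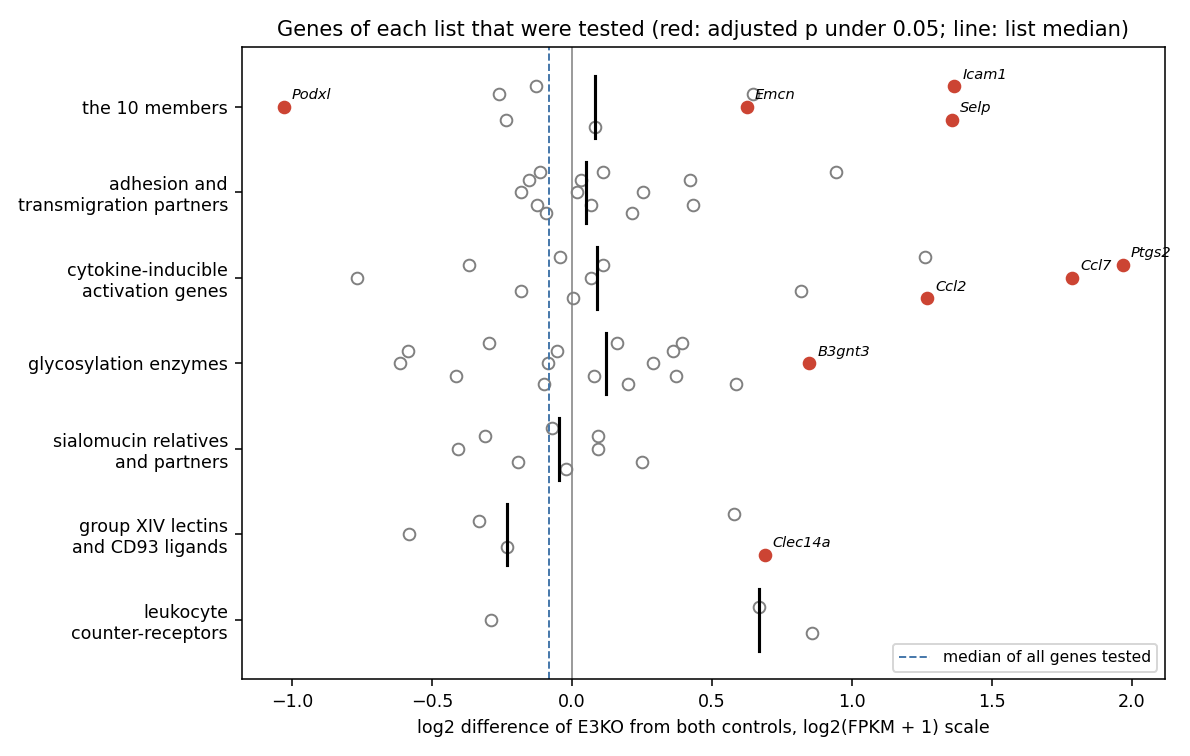
limma log2 differences of E3KO from both controls (horizontal axis, log2(FPKM + 1) scale) for each tested gene of the 10 members and of 6 lists, with called genes in red and named, a black line at each list's median and a dashed line at the median of all genes tested. The 3 called cytokine-inducible genes lie at 1.27 to 1.97, and the other 5 lists hold 0 or 1 called gene each.

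Leukocyte marker RNA was also higher in every E3KO library than in every ECtrl library, and overlapped with EfCtrl. The 12 leukocyte markers summed to between 87.4 and 186 FPKM in ECtrl, 187 and 307 FPKM in EfCtrl and 236 and 381 FPKM in E3KO. In E3KO the largest part of each sum was the lysozyme gene *Lyz2*, at 133, 212 and 221 FPKM. All 7 that were tested had a positive difference in E3KO and 0 were called. The largest differences were in the lysozyme gene *Lyz2* (log2 difference 0.98, limma adjusted p = 0.202), whose libraries overlapped, and *Fcer1g*, an adaptor of Fc receptors (0.85, limma adjusted p = 0.0963). *Fcer1g* was at 26.5, 32.6 and 37.4 FPKM in E3KO, above all controls, at 9.46 to 22.9 FPKM. When the library labelled E3KO replicate 1 was left out, 1 of the 7 rose, the macrophage gene *Cd68*. The pan-leukocyte gene *Ptprc* was between 0.0919 and 1.23 FPKM in the controls and between 0.419 and 1.59 FPKM in E3KO, and the T cell gene *Cd3e* was listed at 0 in every library. Of 10 counter-receptor genes that leukocytes carry, 3 were tested and 0 were called. The integrin genes *Itgb2* (0.86, limma adjusted p = 0.137) and *Itgax* (0.67, limma adjusted p = 0.108) had the largest differences and overlapped between the groups. *Icam1* and the cytokine-inducible genes are also expressed by macrophages, and the part of leukocyte RNA in their difference was not tested. The summed leukocyte markers were higher in every EfCtrl library than in every ECtrl library, but the nearest 2 sums were 187 and 186 FPKM. In bulk RNA, more cells of a type and more RNA per cell cannot be told apart.

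The MLEC carried endothelial RNA throughout. The 12 pan-endothelial markers summed to between 2533 and 2995 FPKM in the controls and between 2292 and 2945 FPKM in E3KO, with 1 of 11 tested genes called, the tight junction gene *Cldn5* (log2 difference -0.92, limma adjusted p = 0.0322), which was not called without any 1 of the E3KO libraries. Markers of lymphatic endothelium were also abundant, summing to between 2179 and 2862 FPKM in the controls and between 2011 and 2319 FPKM in E3KO. All 6 had a negative difference and 3 fell: the lymphatic regulator *Prox1* (-0.99, limma adjusted p = 0.0131), *Reln* (-0.96, limma adjusted p = 0.0167) and the chemokine *Ccl21a* (-1.65, limma adjusted p = 0.0381). Over all genes tested, 3.26% fell. *Prox1* and *Reln* were still called without the library labelled E3KO replicate 1, or without E3KO replicate 2, and *Ccl21a* was not. None of the 3 was called without E3KO replicate 3. The *Podxl* difference had the same sign and *Emcn* and *Cd34* the opposite one. Whether the share of lymphatic and blood endothelial cells had a part in them was not tested. The 14 markers of smooth muscle cells, pericytes and fibroblasts summed to between 13.5 and 83.4 FPKM in the controls and between 12.5 and 26.6 FPKM in E3KO. All 6 that were tested had a negative difference from both controls, with a median of -1.09, and 0 were called. The largest differences were in *Col1a2* (-1.61, limma adjusted p = 0.103) and *Acta2* (-1.39, limma adjusted p = 0.129), which overlapped between the groups. Mesothelial markers summed to at most 3.42 FPKM in the controls and 0.322 FPKM in E3KO. The lung epithelial markers summed to 49.6 FPKM in the library labelled E3KO replicate 1 and to between 0.485 and 2.15 FPKM in the other 8.

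**Figure D4:**
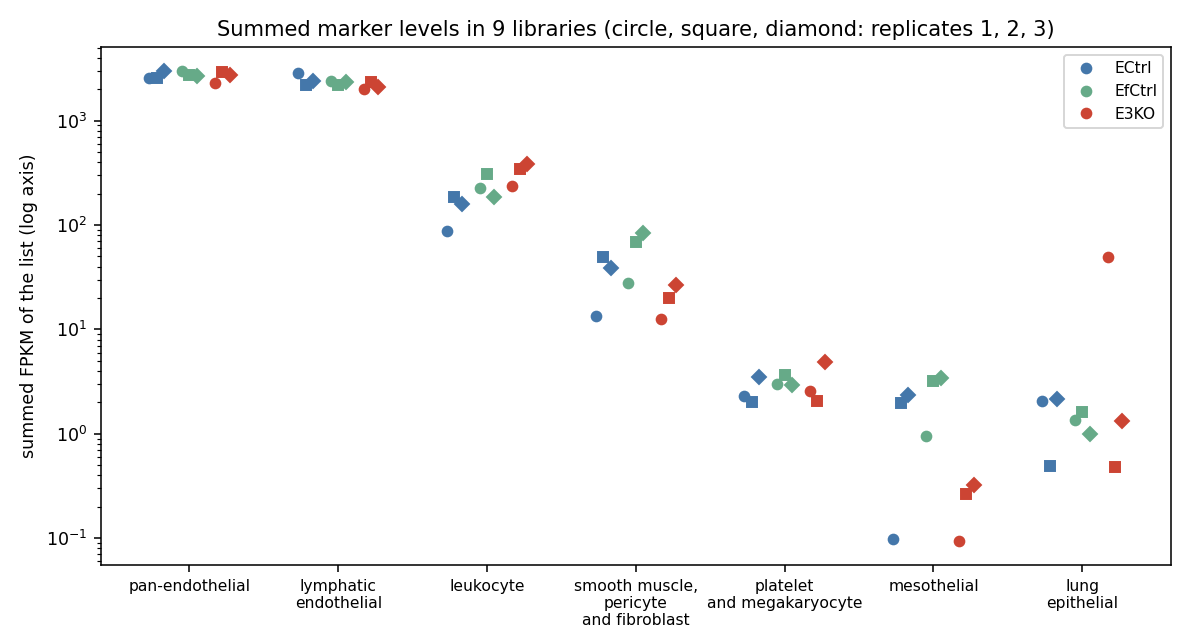
Summed FPKM of 7 lists of cell type markers (vertical log axis) in each library of ECtrl (blue), EfCtrl (green) and E3KO (red). The pan-endothelial and lymphatic sums lie above all other sums in every library, the leukocyte sums run from 87.4 to 381 FPKM, and the lung epithelial sum of the library labelled E3KO replicate 1 stands alone at 49.6 FPKM.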

How the data were processed

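The authors deposited FPKM values for 9 libraries of MLEC (total RNA, messenger RNA libraries, paired-end reads on an Illumina HiSeq). Per the labels and the study's methods, reads were aligned to mm10 with TopHat and Bowtie, and Cufflinks (1.0.3 in the submitters' processing notes), Cuffmerge and Cuffdiff were used. The gene annotation and the strand setting are not given in the sources used here. The deposited tables also hold the authors' group values, fold changes, p-values and q-values, which were not used. The files used here hold no fragment counts and the methods give only an average of aligned reads over libraries, so no depth per library is known. A rough comparison of low FPKM values put the other libraries at 1.13 to 1.71 times the depth of ECtrl replicate 2.

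Of 37104 rows, 3749 that share a symbol and 2 with text in place of a value were left out. The log2(FPKM + 1) values of all 9 libraries entered 1 limma fit (limma 3.58.1 under R 4.3.3) with a mean for each of 3 groups and default moderation. It covered the 10605 genes whose mean was at least 2 FPKM in some group, and p-values were adjusted over these genes. The comparison with both controls set the E3KO mean against the average of the ECtrl and EfCtrl means. The fit was tested on simulated data. For single members, 3 E3KO libraries were set against 6 controls in an exact two-sided permutation test (84 splits). 3 libraries against 3 cannot reach 0.05, so no such test was made against 1 control. Groups and replicate numbers came from the sample labels. Same-numbered libraries are isolations from different mice and their deviations from the group means correlated between -0.04 and 0.12, so the numbers were not used as pairs.

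Named genes are the 10 members, the targeted genes and, from each list, the called genes or, with none called, the 2 with the largest difference. Other genes named in the text, such as defining markers of other cell types and neighbours of a member, were chosen after their values were seen. Members and lists were chosen with earlier results of these data known. Alternatives were a pseudocount of 0.1, no filter, a minimum of 10 FPKM, centred libraries, a replicate block, a mean-variance trend, a fit of the compared groups alone, and each library left out. Neighbouring genes came from GENCODE M21 on the same build, and promoter windows from RefSeq. Python 3.11.15, numpy 2.4.6, pandas 2.3.3, scipy 1.17.1 and matplotlib 3.10.9 were used.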

Additional observations from a re-analysis of the deposited data

How the results depend on the processing

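The number of members called against both controls was 4 under 6 alternatives (a pseudocount of 0.1, no filter, a minimum of 10 FPKM, centred libraries, a mean-variance trend, the compared groups alone) and 0 to 5 with 1 library left out. Those 6 alternatives gave 334 to 718 calls over all genes, and the fits with 1 library left out gave 9 to 412. Against ECtrl it was 3 as reported, 1 (*Podxl*) with no filter, 0 in a fit of the compared groups alone and 0 to 3 with 1 library left out. In the same order, calls over all genes numbered 239, 95, 0 and 0 to 173. *Emcn*, not called against ECtrl as reported, was called against it under 2 alternatives, neither of them a fit with 1 library left out. Against EfCtrl the number of members called was 1 as reported, 0 with no filter, 2 (*Icam1* and *Podxl*) at a minimum of 10 FPKM, 3 (*Emcn*, *Icam1* and *Podxl*) with a mean-variance trend, 1 (*Selp*, and not *Podxl*) in a fit of the compared groups alone and 0 to 5 with 1 library left out. In the same order, calls over all genes numbered 101, 17, 86, 129, 27 and 1 to 223. Between EfCtrl and ECtrl it was 0 under every alternative. With the replicate number as a block, which the labels do not tie to shared mice, the replicate block gave 3 calls against both controls (*Icam1*, *Selp* and *Podxl*), 0 against ECtrl and 0 against EfCtrl, with 202, 1 and 1 calls over all genes beside 509, 239 and 101. The cause of these differences was not tested. By permutation 6 or 7 members had p under 0.05 under each alternative, 6 of them at the smallest p that 3 against 6 libraries allow in the test as reported, and 16.6% of all genes were as fully separated. The log2 differences of *Icam1*, *Selp*, *Emcn*, *Cd34* and *Podxl* from both controls kept their sign in 16 of 16 alternatives. Leaving out 1 library turned the sign of members that were not called. For *Vcam1* the range was -0.37 to 0.12 against both controls, in the permutation test too, -0.36 to 0.16 against ECtrl and -0.41 to 0.085 against EfCtrl. For *Cd93* it was -0.031 to 0.28, -0.066 to 0.36 and -0.11 to 0.21, and -0.031 to 0.28 in the permutation test, and for *Mcam* against EfCtrl it was -0.25 to 0.035. Over all genes, calls against both controls numbered 351 of 20429 with no filter and 9 without E3KO replicate 3. *Sele* had no value at the 2 FPKM minimum, and *Vcam1* none at 10 FPKM. With 3 libraries per group and unknown fragment numbers, differences of the size measured for *Vcam1*, *Mcam* and *Cd93* could not be resolved.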
